A study of Homo sapiens with 36 samples.

Results

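TYRO3 and 9 other receptor tyrosine kinase genes, AXL, MET, MST1R, EPHA2, EPHB4, IGF1R, INSR, FGFR3 and FGFR4, were followed in 6 human colon cancer cell lines treated with the BET inhibitor JQ1. They are 10 of the 26468 genes in the expression table, found by their Entrez identifiers: 7301 for TYRO3, 558 for AXL, 4233 for MET, 4486 for MST1R, 1969 for EPHA2, 2050 for EPHB4, 3480 for IGF1R, 3643 for INSR, 2261 for FGFR3 and 2264 for FGFR4. TYRO3 was chosen because it was lower with JQ1 in all lines, so its JQ1 values are given as a description with no test. The other 9 were taken as further receptors of the same class, with earlier results of these data known. Their p-values are therefore not those of genes chosen blind. The lines HCT 116, SW 480, HT-29, COLO 205, HCT-15 and COLO 320 are established colorectal tumour lines, and each stands for 1 genetic background. Each line received DMSO, the solvent, or 0.5 µM JQ1 for 24 h, with 3 RNA-seq libraries per line and treatment and 36 libraries in all. JQ1 is a small molecule that keeps BET proteins, readers of acetylated chromatin, off their acetyl-lysine marks. The labels do not say whether the 3 libraries of a group came from separate cultures, and p-values then reflect only how far these libraries spread, which may be technical. Levels are RPKM, reads scaled to gene length and library size, and can therefore be compared between genes.

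Receptor tyrosine kinases are single-pass membrane proteins that bind a ligand outside the cell, pair up and phosphorylate tyrosines on themselves and on adaptor proteins. TYRO3, AXL and MERTK form the TAM family, which binds the vitamin K-dependent proteins GAS6 and PROS1 and takes part in clearing dying cells and in tumour cell survival. MET and MST1R (also called RON) are the receptors of hepatocyte growth factor and macrophage-stimulating protein. EPHA2 and EPHB4 bind membrane-anchored ephrins on neighbouring cells, and Eph receptors position cells along the intestinal crypt. IGF1R and INSR bind insulin-like growth factors and insulin, and FGFR3 and FGFR4 bind fibroblast growth factors.

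Promoter sequences are shown for TYRO3 and EPHB4, the members that were lower with JQ1 in every line, and for FGFR3, the member with the largest rise. They were read from RefSeq windows on the human build GRCh38.p14, limited to bases upstream of the start that lie outside annotated GENCODE exons. Capitals mark GGGCGG, a GC box, or CCGCCC, its reverse complement. The TYRO3 stretch lies on the plus strand at chr15:41558962-41559033, the EPHB4 window on the minus strand at chr7:100827524-100827773 and the FGFR3 window on the plus strand at chr4:1793043-1793292.
TYRO3: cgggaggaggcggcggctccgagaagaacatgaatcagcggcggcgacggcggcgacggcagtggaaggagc
EPHB4: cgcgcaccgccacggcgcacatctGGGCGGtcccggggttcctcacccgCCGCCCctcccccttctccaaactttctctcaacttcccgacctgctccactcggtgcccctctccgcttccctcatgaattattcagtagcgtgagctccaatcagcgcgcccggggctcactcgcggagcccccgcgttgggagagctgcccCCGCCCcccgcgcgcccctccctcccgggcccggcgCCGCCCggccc
FGFR3: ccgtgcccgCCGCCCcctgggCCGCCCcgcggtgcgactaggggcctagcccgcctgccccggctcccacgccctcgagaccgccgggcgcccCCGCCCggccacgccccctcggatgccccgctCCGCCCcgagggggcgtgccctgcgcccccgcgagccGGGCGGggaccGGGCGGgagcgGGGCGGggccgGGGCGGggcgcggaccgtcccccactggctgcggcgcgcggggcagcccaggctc
The printed TYRO3 stretch has 72 bases and no GC box, while its full window of 250 bases has 3. EPHB4 has 4 and FGFR3 has 8 in the printed bases. All 10 genes matched a window, some with more than 1 start, giving 13 windows of 250 bases. Both strands were searched. GGGCGG was found in 10 of the 13 windows, against 42.64% of all 35116 windows. CACGTG, an E-box of the kind bound by MYC and MAX, was in 1 of the 13, a downstream start of FGFR4, against 6.345% of all. CCAAT was in 1, that of EPHB4 (32.01% of all). TATAAA (10.72%) and TGACTCA, an AP-1 motif (4.203%), were in 0 of 13. These matches describe the letters in the windows and do not show binding.

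TYRO3 was lower in every JQ1 library than in every DMSO library of the same line, in all 6 lines. In RNA from whole cultures, fewer cells of a kind and less transcript per cell cannot be told apart. In HCT 116 its 3 DMSO libraries held 13.7, 13.3 and 13.5 RPKM and its JQ1 libraries 3.92, 3.83 and 3.96. In HCT-15 the DMSO values were 13.1, 13.6 and 13.2 RPKM and the JQ1 values 3.38, 3.66 and 3.92. SW 480 went from 9.13, 8.86 and 9.19 RPKM to 2.76, 2.64 and 2.95. These lines kept the most TYRO3, with 30.7% of the DMSO mean left in SW 480, 28.96% in HCT 116 and 27.5% in HCT-15.

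The other lines kept less. In COLO 320 TYRO3 was at 12.3, 11.8 and 12.2 RPKM in DMSO and at 2.26, 2.61 and 2.17 in JQ1, leaving 19.4%. In HT-29 it was at 6.41, 6.13 and 5.95 RPKM in DMSO and 0.807, 0.708 and 0.765 in JQ1, leaving 12.3%. COLO 205 had the lowest levels under both treatments, 3.31, 2.79 and 2.89 RPKM against 0.324, 0.336 and 0.324, leaving 11.0%. The COLO 205 JQ1 values rest on 32 to 34 reads per library, and over all libraries TYRO3 had 32 to 1559 reads. Reads of TYRO3P, its pseudogene, numbered 0 to 6 per library and 63 in all.

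On the log2 scale after adding 0.5 to RPKM, the TYRO3 difference, JQ1 minus DMSO, ran from −1.54 in SW 480 to −2.40 in HT-29 (SE 0.0529 in each line). It was −1.67 in HCT 116, −1.73 in HCT-15, −2.08 in COLO 205 and −2.15 in COLO 320. The mean over lines was −1.93 (SE 0.0216), a 3.805-fold lower level. Here and below the SE rests on the spread of libraries within groups and leaves out the spread between lines. The added constant shrinks the difference of low values. Without it the DMSO mean was 9.13 times the JQ1 mean in COLO 205 and 8.11 times in HT-29, so COLO 205 then had the larger ratio. For background, every JQ1 library was below every DMSO library in every line for 12.3% of the 15542 genes tested. Because TYRO3 was chosen on this contrast, nothing is read from that share.

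**Figure D1:**
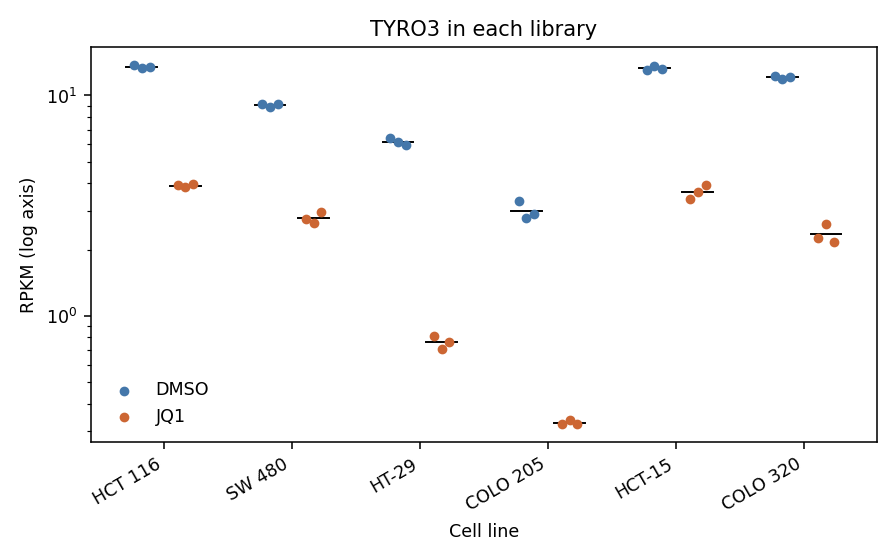
TYRO3 level in RPKM on a log axis in each of the 36 libraries, by cell line, with DMSO in blue and JQ1 in orange and a bar at the mean of 3 libraries. Within each line every JQ1 library lies below every DMSO library, and the means run from 13.5 in HCT 116 DMSO to 0.328 RPKM in COLO 205 JQ1.

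TYRO3 was chosen on JQ1 minus DMSO and not on how its DMSO level differed between lines, and the latter was tested. The choice still drew on these same DMSO libraries, and a fall in every line needs a measurable DMSO level in each. The order and span of its levels are therefore not independent of the choice. TYRO3 differed between lines (limma F test, adjusted p = 1.49e-24), as did 98.8% of all tested genes, with a 4.50-fold span from HCT 116 to COLO 205. In order, the means were 13.5 ± 0.220 RPKM in HCT 116 (SD, n = 3), 13.3 ± 0.270 in HCT-15, 12.1 ± 0.255 in COLO 320, 9.06 ± 0.176 in SW 480, 6.16 ± 0.231 in HT-29 and 3.00 ± 0.272 in COLO 205. HCT 116 and HCT-15 did not differ beyond their spread (limma adjusted p = 0.744) and swapped order with total reads as divisor. HCT-15 and COLO 320 differed in the fit of all libraries (limma adjusted p = 0.0255) but not without HCT-15 DMSO replicate 2 (adjusted p = 0.0824) or COLO 320 DMSO replicate 2 (adjusted p = 0.0826). All other neighbours in the order differed. Between any 2 lines, 77.7% to 87.1% of all tested genes differed in DMSO.

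AXL, the TAM receptor linked to mesenchymal features and drug tolerance, was abundant in only 2 lines. In DMSO it averaged 64.2 ± 0.701 RPKM in SW 480 and 33.8 ± 0.670 in HCT 116 (SD, n = 3). It was at 0.890 in HT-29, 0.382 in COLO 205 and 0.202 in HCT-15, and COLO 320 had 5 AXL reads over its 3 DMSO libraries. With JQ1 it fell in HCT 116, from 34.5, 33.4 and 33.4 RPKM to 26.5, 26.8 and 26.2 (log2 change −0.34, limma adjusted p = 2.79e-06). In SW 480, where AXL was highest, the JQ1 libraries were all below the DMSO libraries, 59.95, 60.9 and 60.9 against 63.9, 65.0 and 63.7 RPKM. That difference of −0.08 did not pass the test (adjusted p = 0.174), though it did with limma voom on the read counts (adjusted p = 5.62e-05) and with the line fitted alone (adjusted p = 0.00383).

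In the lines with little AXL, the change depends on the added constant. HT-29 went from 1.05, 0.774 and 0.848 RPKM to 0.278, 0.236 and 0.199, a log2 change of −0.91 on the scale with 0.5 added and of −1.81 with voom. COLO 205 went from 126 reads over its DMSO libraries to 23 over its JQ1 libraries, −0.65 with 0.5 added and −2.56 with voom. HCT-15 moved the other way, from 0.202 ± 0.0493 to 0.346 ± 0.0496 RPKM (SD, n = 3), +0.27 with 0.5 added and +0.79 with voom. AXL therefore fell in 3 lines and rose in 1 in the main fit, and COLO 320 had too few reads, 5 and 4, to show a change.

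Among the 3 TAM transcripts, TYRO3 made up most of the summed RPKM in the 4 lines with little AXL. Its share in DMSO was 89.5% in HCT-15, 85.7% in COLO 205, 84.5% in HT-29 and 83.8% in COLO 320. AXL made up 86.3% in SW 480 and 68.6% in HCT 116. With JQ1 the TYRO3 share was lower in all lines, at 4.34% in SW 480 and 12.1% in HCT 116, and between 61.7% in COLO 320 and 71.0% in COLO 205 elsewhere. This follows from the choice of TYRO3 and is given as a description. The summed TAM level went from 7.29 ± 0.332 to 1.16 ± 0.0970 RPKM in HT-29 and from 74.4 ± 0.581 to 64.2 ± 0.606 in SW 480 (SD, n = 3). MERTK, the third member of the family, was at 2.33 RPKM or less on average in every group. Its mean log2 change was −0.16 (limma adjusted p = 8.65e-06), and 48.3% of all tested genes were called lower on that mean. The test takes libraries and not lines as the unit. MERTK was not called in HCT 116 (limma adjusted p = 0.128) or COLO 205 (limma adjusted p = 0.187). It fell most in COLO 320, from 2.33 ± 0.0580 to 1.44 ± 0.041 RPKM, and rose in HCT-15 by 0.24 on the log2 scale (adjusted p = 0.00313).

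**Figure D2:**
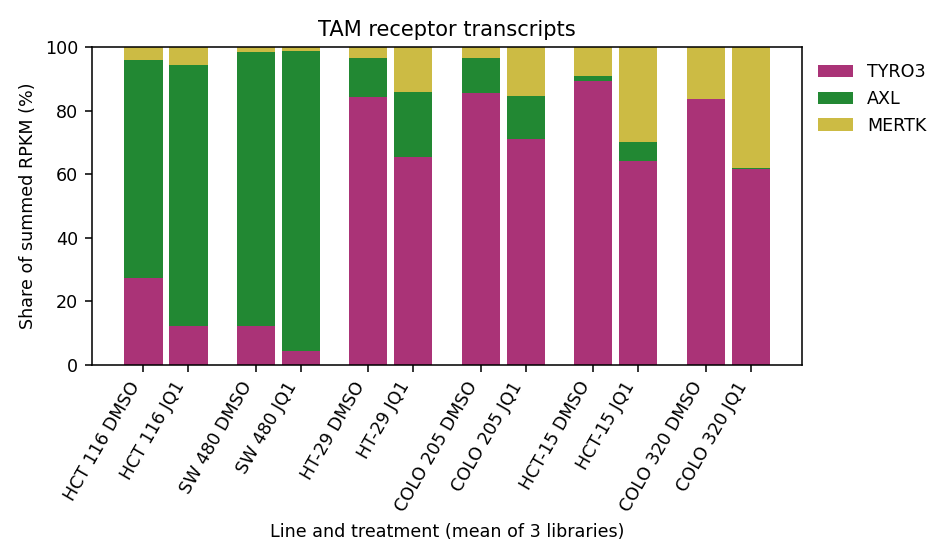
Share in percent of the summed RPKM of TYRO3, AXL and MERTK in each line and treatment, each bar the mean of 3 libraries. AXL fills most of the bars of HCT 116 and SW 480, and TYRO3 most of the others, from 89.5% in HCT-15 DMSO to 61.7% in COLO 320 JQ1.

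MET and MST1R, the paired growth factor receptors of epithelial cells, varied widely between lines and changed by at most 1.53-fold with JQ1 on the scale with 0.5 added to RPKM. MET averaged 95.4 ± 1.02 RPKM in HT-29 and 86.1 ± 0.692 in HCT 116 in DMSO (SD, n = 3), 46.1 in COLO 320, 25.2 in COLO 205 and 22.9 in HCT-15, but only 2.61 ± 0.118 in SW 480. The order of COLO 205 and HCT-15 changed with total reads as divisor and under quantile scaling, and their difference was lost under median centring (limma adjusted p = 0.266). HT-29 and HCT 116 did not differ under quantile scaling (0.013, limma adjusted p = 0.680). With JQ1 MET rose in HT-29, from 95.5, 96.4 and 94.3 to 119.9, 118.5 and 122.2 RPKM (log2 change 0.33, limma adjusted p = 1.74e-13). It fell in COLO 205, from 26.0, 25.2 and 24.6 to 15.9, 16.6 and 16.5 RPKM (−0.61, adjusted p = 1.34e-19). Neither pair of groups overlapped.

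In the other 4 lines the MET changes were between −0.15 and 0.08. The call in SW 480 (−0.10) was lost with each line fitted alone (adjusted p = 0.129), with voom (adjusted p = 0.0554) and under quantile scaling (adjusted p = 0.346). The small rise in HCT-15 (0.08) turned to −0.044 with total reads as divisor (adjusted p = 0.0884) and missed the threshold under quantile scaling (adjusted p = 0.0848).

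MST1R was at 20.1 RPKM in SW 480, 16.03 in COLO 205, 14.96 in HT-29, 14.6 in HCT-15 and 10.1 in HCT 116 in DMSO. COLO 320 had 5 MST1R reads over its DMSO and 4 over its JQ1 libraries. HT-29 and HCT-15 did not differ (limma adjusted p = 0.413) and swapped order with total reads as divisor. The larger level in COLO 205 than in HT-29 (adjusted p = 0.0302) was lost without any 1 of HT-29 DMSO replicates 1 and 3 and COLO 205 DMSO replicates 2 and 3 (adjusted p = 0.0843 to 0.141). With JQ1 MST1R rose in 4 lines, most in HCT 116, from 9.94, 10.5 and 9.79 to 14.5, 15.4 and 14.9 RPKM (log2 change 0.54, adjusted p = 9.87e-13). The rise was 0.31 in HCT-15, 0.22 in HT-29 and 0.14 in SW 480. It fell in COLO 205 by 0.12 (adjusted p = 0.00828), a call lost without COLO 205 DMSO replicate 2 (adjusted p = 0.0540). At a pseudocount of 0.1 the calls in SW 480 (adjusted p = 0.0695) and COLO 205 (adjusted p = 0.124) were also lost.

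The Eph receptors behaved differently from each other. EPHB4, the receptor of ephrin-B2, was called lower in every line, as were 11.7% of all tested genes, and none of the other 8 tested members was. It fell most in HT-29, where it was also highest, from 65.7, 68.0 and 67.8 to 41.0, 41.1 and 41.2 RPKM (log2 change −0.70, SE 0.0336, limma adjusted p = 3.24e-17). COLO 320 went from 19.5, 19.0 and 19.6 to 12.7, 13.6 and 13.3 RPKM (−0.54, adjusted p = 2.21e-14). SW 480 went from 27.1, 25.4 and 26.0 to 17.6, 18.3 and 18.8 RPKM (−0.51, adjusted p = 7.11e-14). In these lines the groups were far apart.

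The EPHB4 fall was 0.43 in COLO 205 and 0.35 in HCT-15 on the log2 scale. It was least in HCT 116, from 23.9, 24.5 and 26.1 to 22.4, 22.2 and 22.2 RPKM (−0.15, limma adjusted p = 0.000193), where the groups still did not overlap. The mean change was −0.45 (SE 0.0137, adjusted p = 2.30e-22). EPHB4 was the only 1 of the 9 members whose mean change passed with the cell line as the unit of replication (limma on 6 differences, adjusted p = 0.00744), as did 6105 of all 15542 tested genes. In DMSO its level in HT-29, 67.2 ± 1.32 RPKM (SD, n = 3), stood above the range of 19.4 to 26.2 in the other lines. COLO 205 and HCT 116 did not differ (limma adjusted p = 0.959), and their order turned under all 3 other scalings. The step from SW 480 to COLO 205 (adjusted p = 0.0449) was lost without SW 480 DMSO replicate 1 (adjusted p = 0.228), SW 480 DMSO replicate 3 (adjusted p = 0.0598) or COLO 205 DMSO replicate 1 (adjusted p = 0.272).

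EPHA2, a receptor of A-type ephrins with raised levels in many carcinomas, moved by 2-fold or more in opposite directions in 2 lines. In HCT-15 its libraries went from 33.3, 33.5 and 32.7 RPKM in DMSO to 90.3, 90.3 and 89.3 in JQ1 (log2 change 1.43, limma adjusted p = 8.37e-24). In COLO 320 they went from 8.95, 8.40 and 8.64 to 2.18, 2.00 and 1.90 RPKM (−1.86, adjusted p = 2.64e-26). The groups were apart in both lines. HCT-15 thus went from the fourth-ranked DMSO level to the highest EPHA2 level of any group, while COLO 320 was lowest under both treatments.

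EPHA2 also rose in HCT 116 (0.36), HT-29 (0.30) and SW 480 (0.16), and its COLO 205 libraries overlapped, at 11.8 ± 0.344 in DMSO and 11.6 ± 0.377 RPKM in JQ1 (SD, n = 3; −0.03, limma adjusted p = 0.523). Because these changes cancel, its mean over lines was only 0.06 (adjusted p = 0.000295), lost with total reads as divisor (adjusted p = 0.175) and with voom (adjusted p = 0.186). In DMSO EPHA2 stood at 65.3 RPKM in SW 480, 60.9 in HCT 116, 43.8 in HT-29, 33.1 in HCT-15, 11.8 in COLO 205 and 8.66 in COLO 320. Neighbours in this order differed, except SW 480 and HCT 116 under median centring (adjusted p = 0.666). The JQ1 effect on EPHA2 differed between lines (limma F test, adjusted p = 5.92e-27). In COLO 320 the summed level of 5 fibroblast marker genes also went from 14.3 to 14.6 RPKM in DMSO to 2.75 to 3.06 in JQ1, COL1A1 and COL3A1 being those at 1 RPKM or more in DMSO and COL1A2 and DCN being listed at 0. Its part in the COLO 320 results was not tested.

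IGF1R, the receptor of insulin-like growth factors, and INSR, the insulin receptor, had modest levels and changes under 1.5-fold. IGF1R was highest in COLO 205, at 16.9, 16.2 and 17.2 RPKM in DMSO, and rose there to 21.4, 22.1 and 23.0 (log2 change 0.39, limma adjusted p = 7.78e-10). It also rose in COLO 320 (0.38), HT-29 (0.33) and HCT 116 (0.32). In SW 480 it fell, from 5.85, 5.75 and 6.18 to 4.64, 5.05 and 4.82 RPKM (−0.27, adjusted p = 9.22e-07). In HCT-15 the difference of 0.06 did not pass (adjusted p = 0.190), although the libraries did not overlap, and it passed under quantile scaling (0.10, adjusted p = 0.0219) and turned to −0.047 with total reads as divisor (adjusted p = 0.321). Its DMSO means in the other lines were 7.99 RPKM in HT-29, 7.29 in COLO 320, 5.93 in SW 480, 3.29 in HCT-15 and 1.99 in HCT 116, in which HT-29 and COLO 320 differed as deposited (adjusted p = 0.00619) but under none of the 3 other scalings (adjusted p = 0.116 to 0.703). Across the 6 lines IGF1R and TYRO3 levels in DMSO ran opposite, with Pearson r = −0.872 over 6 line means, given as a description. It was the strongest correlation of DMSO levels among all pairs of members, each over only 6 points. The other TYRO3 pairs ran from −0.629 with FGFR4 to 0.61 with INSR.

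INSR was highest in HCT-15, where it fell from 6.07, 6.11 and 6.48 to 4.14, 4.26 and 4.27 RPKM (log2 change −0.51, limma adjusted p = 1.75e-12). It fell in COLO 205 (−0.39) and rose in HT-29, from 1.61, 1.71 and 1.81 to 2.46, 2.48 and 2.46 RPKM (0.43, adjusted p = 6.54e-11). A smaller rise of 0.17 was called in HCT 116. The fall in SW 480 (−0.12, adjusted p = 0.00563) was lost under quantile scaling (adjusted p = 0.207), with each line fitted alone (adjusted p = 0.0727) and without SW 480 DMSO replicate 2 (adjusted p = 0.0619). In COLO 320 the libraries overlapped (0.04, adjusted p = 0.423), but quantile scaling gave a call (0.15, adjusted p = 0.00179). In DMSO INSR averaged 6.22 RPKM in HCT-15, 5.08 in HCT 116, 3.50 in COLO 320, 2.90 in COLO 205, 2.44 in SW 480 and 1.71 in HT-29, the last step missing the threshold under quantile scaling (adjusted p = 0.0594). IGF1R and INSR moved in opposite directions in COLO 205, at +0.39 and −0.39.

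FGFR3 had the largest rises of the 9 receptors. In SW 480 its libraries went from 1.09, 0.964 and 0.922 RPKM in DMSO to 8.63, 8.74 and 9.26 in JQ1 (log2 change 2.65, SE 0.0616, limma adjusted p = 3.47e-24), 8.95 times the DMSO mean without the added constant. In HCT-15 they went from 0.759, 0.725 and 0.832 to 4.23, 3.83 and 4.12 RPKM (1.84, adjusted p = 1.24e-20). Both lines started at or under about 1 RPKM and all JQ1 libraries lay above all DMSO libraries.

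FGFR3 also rose in HCT 116, from 9.37, 9.89 and 9.74 to 17.4, 17.1 and 16.7 RPKM (0.79, limma adjusted p = 3.69e-12), and in COLO 320 from 1.18 ± 0.163 to 1.72 ± 0.117 (SD, n = 3; 0.40, adjusted p = 1.47e-06). It fell in HT-29, the line with the highest DMSO level, from 17.8 ± 0.458 to 14.2 ± 0.221 RPKM (−0.32), and in COLO 205 from 4.21 ± 0.423 to 3.02 ± 0.173 (−0.42). The low DMSO levels of COLO 320, SW 480 and HCT-15 were close. COLO 320 differed from SW 480 (adjusted p = 0.0124) but not with voom (adjusted p = 0.0651) or without SW 480 DMSO replicate 3 (adjusted p = 0.0664) or COLO 320 DMSO replicate 1 (adjusted p = 0.123), and SW 480 and HCT-15 changed order under quantile scaling.

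FGFR4, the receptor through which FGF19 acts in liver and gut, had its largest change in HT-29. There its libraries fell from 36.2, 36.1 and 35.96 RPKM in DMSO to 12.1, 12.4 and 12.1 in JQ1 (log2 change −1.53, SE 0.0536, limma adjusted p = 2.19e-20). COLO 320 fell from 11.9, 12.3 and 12.2 to 7.44, 7.09 and 7.92 RPKM (−0.66, adjusted p = 6.90e-12). In HCT-15, which had the least FGFR4, it rose from 0.930, 0.889 and 0.822 to 2.22, 2.11 and 2.61 RPKM (1.02, adjusted p = 3.52e-16). The groups were apart in all 3 lines.

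That HCT-15 rise lies just past 2-fold, and with total reads as divisor or a pseudocount of 1 it lies under it. FGFR4 rose in SW 480 (0.43), and did not change beyond its spread in HCT 116, at 22.8 ± 0.348 and 23.7 ± 1.28 RPKM (SD, n = 3; 0.06, limma adjusted p = 0.384). In COLO 205, the line with the highest level at 42.2 ± 1.35 RPKM, the fall of 0.15 (adjusted p = 0.0126) was lost under quantile scaling (adjusted p = 0.295) and without COLO 205 DMSO replicate 3 (adjusted p = 0.0595). The DMSO order ran from COLO 205 through HT-29, HCT 116, COLO 320 and SW 480 (7.68 RPKM) to HCT-15 (0.880), and all neighbours differed. In HT-29 FGFR3 and FGFR4 both fell, and in SW 480 and HCT-15 both rose. In COLO 320 FGFR3 rose while FGFR4 fell.

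**Figure D3:**
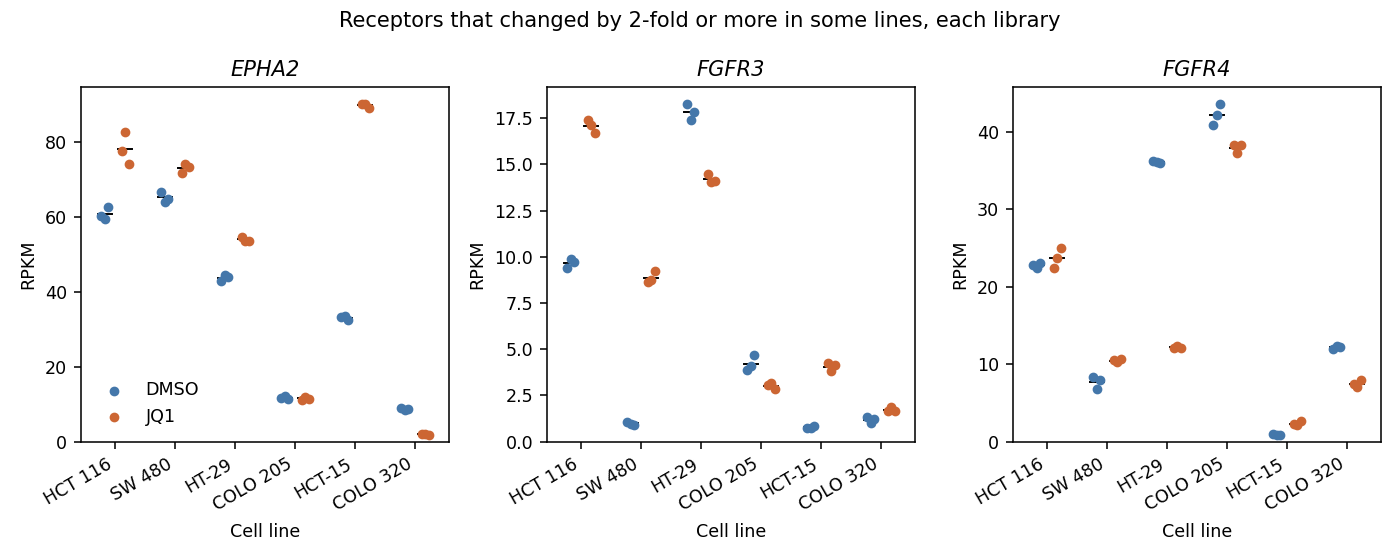
RPKM of EPHA2, FGFR3 and FGFR4 in each library by cell line, DMSO in blue and JQ1 in orange, with a bar at the mean of 3 libraries. EPHA2 rises from 33.1 to 90.0 RPKM in HCT-15 and falls from 8.66 to 2.03 in COLO 320, FGFR3 rises in SW 480 and HCT-15, and FGFR4 falls in HT-29 from 36.1 to 12.2.

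Counted over the 9 receptors other than TYRO3, 5 rose and 3 fell in HCT 116, where 32.4% of all tested genes rose and 35.5% fell. In SW 480, 4 rose and 4 fell (33.9% and 40.1% of all genes). HT-29 had 5 higher and 4 lower (36.6% and 37.3%). COLO 205 had 1 higher and 7 lower (34.2% and 38.6%), and its receptors had a median change of −0.39 against −0.01 for all genes. HCT-15 had 6 higher and 2 lower (34.8% and 35.4%), with a median of 0.27 against 0 for all genes. In COLO 320, 2 rose and 4 fell (31% and 37.2%). The receptors therefore leaned towards lower levels in COLO 205 and towards higher levels in HCT-15, as a count of 9 chosen genes. With total reads as divisor the HCT-15 call of MET was lost (−0.044, limma adjusted p = 0.0884). AXL in that line averaged only 0.202 RPKM in DMSO and 0.346 in JQ1. The COLO 205 falls of MST1R and FGFR4 were each lost without 1 DMSO library (limma adjusted p = 0.0540 and 0.0595). With JQ1 the summed level of 11 epithelial marker genes was 5670 to 5739 RPKM in HCT-15, against 2056 to 2076 in DMSO, and 8354 to 8413 in HT-29, against 4081 to 4134. In these lines the list did not move as a whole, with 4 genes called higher and 2 lower in HCT-15 and 5 higher and 4 lower in HT-29. It leaned lower in COLO 320, with 1 gene called higher and 6 lower (31% and 37.2% of all genes). Its sum there was 1154 to 1166 RPKM in DMSO and 888 to 921 in JQ1. Markers at 1 RPKM or more went from 7 in DMSO to 6 in JQ1 in HCT-15 and from 11 to 8 in HT-29. For COLO 320 they went from 5 to 4, with EPCAM and CDH17 no longer among them and KRT20 added. The sum of 5 leukocyte marker genes was 610 to 641 RPKM in COLO 205, against 1203 to 1223 in DMSO, from LYZ and CD68, with PTPRC listed at 0 under both treatments. The part of these shifts in the receptor counts was not tested.

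Changes of 2-fold or more were fewer. FGFR3 rose that far in SW 480, where 3.23% of all genes did. In HCT-15, where 3.39% did, EPHA2, FGFR3 and FGFR4 rose. FGFR4 fell that far in HT-29 (5.9% of all genes) and EPHA2 in COLO 320 (4.66%). Over the 6 lines 3 of 9 reached 2-fold in at least 1, as did 25.5% of all genes. No other member reached 2-fold in the main fit, and AXL did in HT-29 and COLO 205 with voom or a pseudocount of 0.1. EPHA2 and FGFR4 each rose 2-fold in 1 line and fell 2-fold in another, which 0.508% of all tested genes did. For FGFR4 this was lost with total reads as divisor or a pseudocount of 1, where its HCT-15 rise lay under 2-fold. The members were chosen with these results known, so this is a description.

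The JQ1 effect differed between lines for 9 of 9 (limma F test), as for 93.3% of all genes. On the mean over lines 4 rose and 5 fell (40.2% and 48.3% of all genes), with a median of −0.06 against −0.04 for all genes. With the cell line as the unit only EPHB4 passed, and the other 8 had adjusted p = 0.128 to 0.900. DMSO levels differed between lines for 10 of 10 receptors, as for 98.8% of all tested genes. Summed over the 10 receptors, RPKM in DMSO ranged from 110.4 ± 1.01 in COLO 320 to 292.1 ± 1.98 in HT-29 (SD, n = 3). With JQ1 the sum was higher in HCT-15, 116.1 ± 0.170 against 166.7 ± 0.164, and lower in COLO 320, 110.4 ± 1.01 against 81.7 ± 0.429. In HCT-15 EPHA2 made up 28.5% of the sum in DMSO and 54.0% in JQ1.

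**Figure D4:**
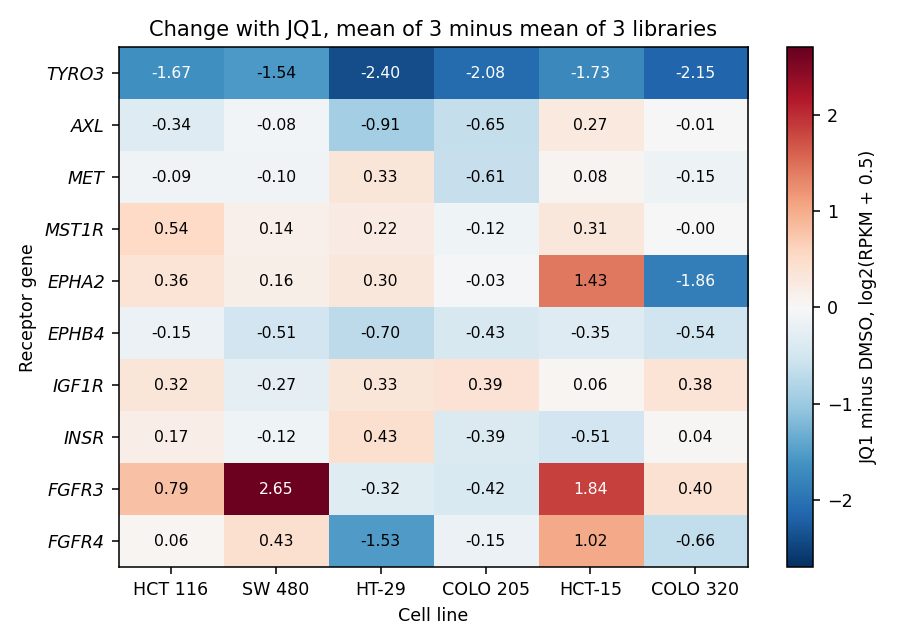
Difference JQ1 minus DMSO in log2(RPKM + 0.5) for the 10 receptors in each line, as the mean of 3 minus the mean of 3 libraries, with blue for lower and red for higher. TYRO3 and EPHB4 are negative in all 6 lines, and the other rows hold both signs, from −1.86 for EPHA2 in COLO 320 to 2.65 for FGFR3 in SW 480.

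**Figure D5:**
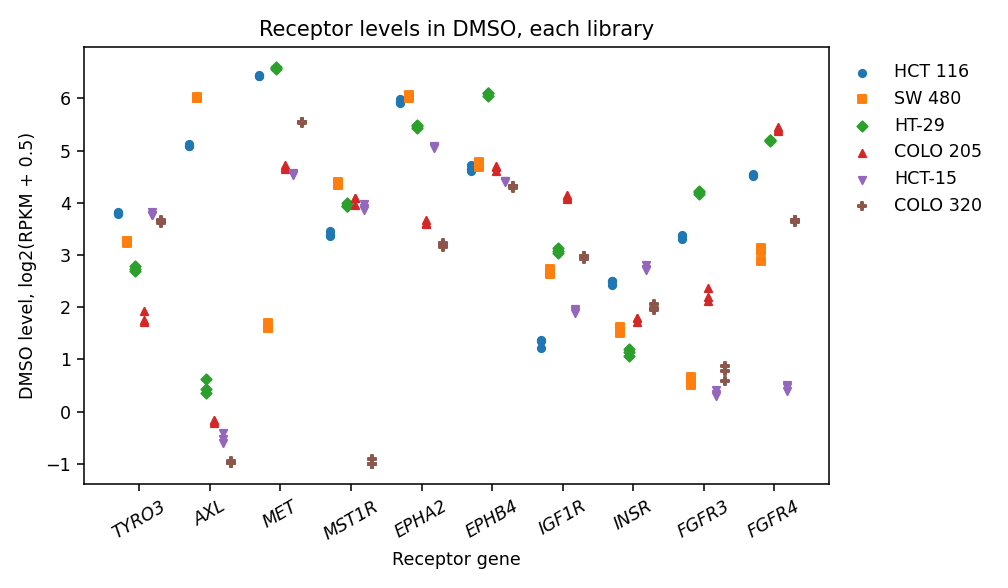
DMSO level, log2(RPKM + 0.5), of each receptor in each of 18 libraries, marked by cell line. AXL and MST1R have lines near the floor of −1 that 0.5 sets, and EPHB4, INSR and TYRO3 have the narrowest spans between lines, 3.46-fold, 3.64-fold and 4.50-fold in RPKM. The TYRO3 span is not independent of its choice, which drew on these libraries.

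The ligands of these receptors were taken from a list of 32, of which 18 passed the filter. For the mean over lines 6 rose and 12 fell, where 40.2% of all tested genes rose and 48.3% fell, with a median of −0.28 against −0.04 for all genes. GAS6, which binds all TAM receptors, was at 29.96 RPKM in SW 480, 18.8 in HCT 116, 17.5 in HCT-15 and 10.9 in COLO 205 in DMSO and under 1 in HT-29 and COLO 320. It rose in COLO 205, from 10.9 ± 0.72 to 19.1 ± 0.26 RPKM (SD, n = 3; 0.78, limma adjusted p = 1.66e-13), and fell in SW 480 (−0.41) and HCT-15 (−0.33). PROS1, protein S, the other TAM ligand, was called lower in all 6 lines, as were 11.7% of all tested genes. Its changes ran from −0.13 in SW 480 (limma adjusted p = 0.0289) to −0.67 in HCT 116. Its highest level, in COLO 205, fell from 33.4 ± 0.65 to 24.6 ± 0.27 RPKM.

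HGF, the MET ligand, had at most 1 read over the 3 libraries of any group, so no level could be given. MST1, the MST1R ligand, did not pass the filter, with a highest group mean of 1.12 RPKM in SW 480 JQ1. IGF2 fell in HT-29 from 14.2 ± 0.29 to 4.52 ± 0.19 RPKM (SD, n = 3; −1.55, limma adjusted p = 1.62e-20) and in HCT 116 from 3.12 ± 0.14 to 1.43 ± 0.15. The largest mean falls on the ligand list were those of FGF19 (−1.16) and EFNA2 (−0.93), the largest rises those of EFNB2 (1.12) and FGF18 (1.00). FGF19 fell in HT-29 from 14.7 to 0.257 RPKM, where FGFR4 also fell, and in SW 480 from 126.3 to 28.5 RPKM, where FGFR4 rose. EFNB2, ephrin-B2, the EPHB4 ligand, was called higher in all 6 lines, as were 11.2% of all tested genes. Its changes ran from 0.18 in COLO 205 to 2.04 in SW 480. EPHB4 was called lower in all 6, as were 11.7% of all tested genes, and a link between these changes was not tested.

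Of 48 other receptor tyrosine kinases 28 were tested, and on the mean over lines 10 rose, 15 fell and 3 did not pass (all genes 40.2% and 48.3%), with a median of −0.07 against −0.04. AATK (−0.83) and EPHB6 (−0.79) fell most and EPHB3 (0.85) and FGFR1 (0.50) rose most. AATK was called higher in COLO 205 (0.24), and FGFR1 lower in HT-29 (−0.10) and COLO 205 (−0.22), all at group means of 0.106 RPKM or less. EPHB6 was not called in HCT-15 or COLO 320. EPHB3, a Wnt-regulated crypt receptor, went from 3.87 ± 0.15 to 10.9 ± 0.25 RPKM in SW 480 (SD, n = 3). AATK in HT-29 went from 14.2 ± 0.15 to 5.31 ± 0.23 RPKM.

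Among 24 adaptors and proximal effectors, all tested, 15 rose and 8 fell on the mean over lines (all genes 40.2% and 48.3%). The median was 0.07 against −0.04. SRC, a kinase that many of these receptors engage, fell by 1.06 on average and in all 6 lines, most in COLO 320, from 10.9 ± 0.55 to 2.39 ± 0.057 RPKM (SD, n = 3; −1.98, limma adjusted p = 3.14e-25). Of all tested genes 11.7% were called lower in every line. IRS1, the docking protein of IGF1R and INSR, fell (−0.77), as far as 16.4 ± 0.30 to 4.93 ± 0.077 RPKM in HCT 116, while its relative IRS2 rose (0.54). SOS2, a RAS exchange factor, rose (0.55).

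Of 11 tested of 17 genes for ligand processing and co-receptors, 7 rose and 3 fell (all genes 40.2% and 48.3%), with a median of 0.21 against −0.04. On the mean over lines IGF2R, which clears IGF2, rose (0.72), as did IGFBP6 (0.44). PLAU, a protease that can activate pro-HGF, fell on that mean (−0.78), as did IGFBP4 (−0.34). Single lines varied: IGFBP6 was called lower in COLO 320 (−0.27, limma adjusted p = 0.0220), and IGFBP4 was not called in HCT 116 or SW 480. Of 12 attenuators, all tested, 4 rose and 7 fell, against the same shares of all genes, with a median of −0.16. The ubiquitin ligase CBLB rose (0.60) and its relative CBLC fell (−0.55). LRIG3 fell (−0.56) and LRIG2 rose (0.20). These too are means over lines. CBLC was not called in HT-29 or COLO 320, and LRIG3 and LRIG2 were not called in SW 480 or COLO 320.

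The 5 genes whose pattern was most like that of TYRO3 over the 12 group means of log2(RPKM + 0.5) were PTGDR2 (Pearson r = 0.977), CCDC86 (0.973), TTC27 (0.948), NLRX1 (0.939) and TNPO2 (0.935). Likeness here combines the DMSO order and the JQ1 difference, and PTGDR2 and CCDC86 overlap in the RefSeq table, so without strand information their reads cannot be told apart. CCDC86 was lower with JQ1 in all 6 lines, by 0.74 in SW 480 to 1.94 in HT-29 on the log2 scale, and TNPO2 by 0.28 in COLO 320 to 0.99 in HT-29. TYRO3's own tested neighbours on the chromosome were not lower in every line, and 11.7% of all tested genes were called so. TYRO3 was chosen for that pattern, so nothing is read from the contrast. RPAP1 had changes of −0.11 to 0.14, MGA, a MAX partner, of −0.20 to 0.21, and LTK, itself a receptor tyrosine kinase, of −1.08 in COLO 205 to 0.72 in HCT 116. MIR626 did not pass the filter.

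Reads counted in genes ranged from 18.8 to 53.1 M (median 24.5 M per library). The JQ1 label was checked on HEXIM1, which was higher with JQ1 in all 6 lines (1.06 to 2.67), and MYC, which was lower in all 6 (−0.14 to −1.35). The epithelial markers EPCAM, KRT8 and KRT18 were at 1 RPKM or more in DMSO in every line, but CDH1 was under 1 in COLO 320 and CDX1 was listed at 0 in DMSO in 4 lines. Of the 11 markers on the epithelial list, 11 reached 1 RPKM in DMSO in HT-29, 9 in COLO 205, 7 in HCT-15, 6 in SW 480 and 5 each in HCT 116 and COLO 320. Endothelial markers did not reach 1 RPKM in any group. The leukocyte list summed to 1503 to 1551 RPKM in HT-29 and 1203 to 1223 in COLO 205 in DMSO, from LYZ and CD68 with PTPRC under 1. PTPRC was at 1 RPKM or more in COLO 320 under both treatments. Of 5 neuroendocrine markers, CHGA, CHGB and SYP reached 1 RPKM in SW 480. The list summed there to 6.10 to 6.48 RPKM in DMSO and 11.9 to 12.6 in JQ1. All 3 tested were called higher in SW 480, as were 33.9% of all tested genes. The part of these markers in the receptor results was not tested.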

How the data were processed

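RNA-seq libraries of 6 cell lines with DMSO or JQ1, 36 in all, were grouped by the labels. Values are deposited as RPKM per gene, computed by the authors; the submitters' processing notes list limma, DESeq and GSNAP, of versions that the sources used here do not give. These notes name the build NCBIM37, a mouse assembly, though genes carry human Entrez identifiers, so no coordinates were taken from the table. Symbols came from a RefSeq table of GRCh38.p14, which named 24519 of 26468 genes; promoters came from RefSeq and exons from GENCODE on the same build. Strand and read length are not stated, so overlapping antisense genes cannot be told apart.

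Reads were recovered from the RPKM steps: 23499 of 23499 genes above 0 came out whole within 0.01 read (100%). Reads per unit of the authors' divisor ran from 0.878 to 1.02 between libraries. Chi-square per gene between replicates was 1.23 to 3.21 over 36 pairs, so none was counted as 1 library.

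The 15542 genes with RPKM of at least 1 in at least 3 libraries were fitted with limma 3.58.1 (R 4.3.3, mean-variance trend, 24 residual and 2.97 prior degrees of freedom) on log2(RPKM + 0.5), which understates changes of low genes. P-values are two-sided and Benjamini-Hochberg adjusted over all tested genes within a contrast, with calls at an adjusted p under 0.05. On simulated data the fit of all lines gave more false calls in single lines than the nominal share, and a fit of each line alone came closer to it. Other steps used pandas 2.3.3, numpy 2.4.6, matplotlib 3.10.9 and scipy 1.17.1 in Python 3.11.15.

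The members and lists were chosen with earlier results of these data known. All 10 members are named, with fixed TAM, MET, MST1R and IGF ligands and MERTK; from each list, the 2 called genes with the largest rise and the 2 with the largest fall of the mean effect; the 5 genes most like TYRO3; and its 2 nearest neighbours on each side. Other genes' levels are named only where a marker check needs them. Alternatives were other pseudocounts, filters, scalings, a replicate block, limma voom on recovered reads, each line alone, the line as the unit and each library left out.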

Additional observations from a re-analysis of the deposited data

Results flagged for a closer look

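The JQ1 effect differed between lines for each of the 9 receptors other than TYRO3, by limma's F test over 5 differences between 6 within-line changes, as it did for 93.3% of all tested genes. The adjusted p was 5.92e-27 for EPHA2, whose changes ran from −1.86 in COLO 320 to 1.43 in HCT-15 on the log2 scale. For FGFR3 it was 1.50e-22, with changes of −0.42 in COLO 205 to 2.65 in SW 480. For FGFR4 it was 9.30e-21, with −1.53 in HT-29 to 1.02 in HCT-15. MET had 1.12e-18 and changes of −0.61 in COLO 205 to 0.33 in HT-29. INSR had 1.23e-14, from −0.51 in HCT-15 to 0.43 in HT-29. AXL had 1.90e-13, from −0.91 in HT-29 to 0.27 in HCT-15, the low levels in both lines resting on few reads. IGF1R had 2.15e-11, from −0.27 in SW 480 to 0.39 in COLO 205, and MST1R 1.42e-10, from −0.12 in COLO 205 to 0.54 in HCT 116. EPHB4, lower in all 6 lines, had 6.40e-10, from −0.70 in HT-29 to −0.15 in HCT 116.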

How the results depend on the processing

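All 164 results were recomputed under 10 other settings, where these apply, and with each of 36 libraries left out. The mean TYRO3 difference of −1.93 became −2.22 at a pseudocount of 0.1, −1.70 at 1 and −2.32 with voom, and stayed between −1.94 and −1.92 when 1 library was left out. In SW 480 the receptors called lower went from 4 to 2 under quantile scaling. With the cell line as the unit the mean effect called 0 receptors higher and 1 lower, and 6105 genes in place of 13745. Among results called in at least 1 of the 2 settings compared, direction turned with total reads as divisor for MET in HCT-15 (−0.044, adjusted p = 0.0884) and, in DMSO levels, for MET in COLO 205 minus HCT-15 (−0.049, adjusted p = 0.0487), MST1R in HT-29 minus HCT-15 (−0.10, adjusted p = 0.0318) and EPHB4 in COLO 205 minus HCT 116 (−0.12, adjusted p = 0.00213). Under quantile scaling it turned for the same MET pair (−0.0037, adjusted p = 0.916), the same EPHB4 pair (−0.11, adjusted p = 0.00413) and FGFR3 in SW 480 minus HCT-15 (−0.35, adjusted p = 5.75e-06), and under median centring for that EPHB4 pair (−0.093, adjusted p = 0.00977). IGF1R in HCT-15, called in neither, turned to −0.047 with total reads as divisor (adjusted p = 0.321). The causes were not tested. Leaving out 1 library lowered the receptors called lower from 4 to 3 in SW 480 and from 7 to 6 in COLO 205, and moved no other count of receptors.

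Replicate numbers are shared by DMSO and JQ1 libraries in the labels, but do not pair the samples: same-numbered deviations correlated at −0.148 to 0.0492 over 18 pairs, 0 of them over 0.1, and own number was best in 4 of 18. A replicate block gave 13692 genes called for the mean effect, against 13745, a mean TYRO3 difference of −1.93, and the same counts of receptors called in every line. Depth limits AXL and MST1R in COLO 320 and HGF in all lines, each with at most 5 reads per group.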
